A study of Rattus norvegicus with 48 samples.

Results

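Ros1 (ENSRNOG00000000406) and Dok5 (ENSRNOG00000013196), 2 genes of tyrosine kinase signaling, are described here out of 31998 genes measured in rat hindlimb muscle. They were chosen because both were lower after hindlimb immobilization (HI) than in controls (CTRL) in the plantaris and the soleus, and in the low (LRT) and the high (HRT) responder line. The lower level after HI is therefore what defined them, and it is given as a description with no test. Both genes passed the filter on low counts, which kept 16960 genes.

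The study asked how a short period of disuse alters the muscle transcriptome in rats bred for a low or a high response to endurance training. All rats were females of generation 19, aged 14 months, from lines that had been bred from genetically heterogeneous stock, and both lines had completed treadmill training earlier in life. In HI rats a hindlimb was held in plantar-flexion by a cast for 3 d, whereas CTRL rats had no cast and were separate animals. HI and CTRL rats were anaesthetized, and both muscles were collected. The 8 groups were plantaris LRT HI, plantaris LRT CTRL, plantaris HRT HI, plantaris HRT CTRL and the same 4 for soleus, with 6 libraries each and 48 in all. Library totals were between 26.8 M and 36.4 M estimated counts, with a median of 30.4 M, and RNA integrity numbers (RIN) were between 7.8 and 8.6. The fast fibre markers (6 genes, among them parvalbumin, Pvalb) summed to between 6670 and 30200 counts per 1 M counts of the scaled library (CPM) in plantaris and between 1880 and 4730 CPM in soleus. No plantaris library overlapped a soleus library in this sum. Soleus HRT CTRL replicate 1 stood furthest from its own group, with a mean correlation of 0.958 with the other 5 libraries. Without it, the log2 fold change of HI in soleus HRT was -1.49 for Ros1 and -1.99 for Dok5.

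Ros1 is a receptor tyrosine kinase, long regarded as an orphan, that is a protein that spans the cell membrane and adds phosphate to tyrosines when its extracellular ligand binds. NELL2 is known as a ligand of it in the male reproductive tract, and gene fusions that join its kinase domain to other proteins drive some tumours. Dok5 is an adaptor of the downstream-of-tyrosine-kinase family. Adaptors of this family hold a phosphotyrosine-binding domain, dock on activated receptors and have no enzyme activity of their own. Dok5 is known to bind Ret, the receptor of glial cell line-derived neurotrophic factor ligands, and to be a substrate of the insulin receptor, for which it has also been named IRS6.

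The sequence before the start of each gene is shown because both genes were lower together. The stretches printed differ in length and in their distance from the start, so they are not to be compared base by base. The promoter windows are from RefSeq on the rat build GRCr8, which is not the build of the count table (Rnor_6.0), and both genes were matched through their RefSeq gene numbers. For Ros1 the 122 bases that lie upstream of every annotated start are printed, from 250 to 129 bases before the start of the window's transcript, on the minus strand of chr20:32126676-32126797.
Ros1: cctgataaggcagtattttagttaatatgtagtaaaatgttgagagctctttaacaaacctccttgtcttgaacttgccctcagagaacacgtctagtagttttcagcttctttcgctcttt
For Dok5 the 30 bases around its only motif match are printed, on the plus strand of chr3:179934465-179934494, with the match in capitals. Only 8 bases of the Dok5 window lie upstream of every annotated start, so these bases and the match lie after another annotated start of Dok5, unlike the bases printed for Ros1.
Dok5: ctgccgcccagtCAGCTGacgccgcgctcc

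Motifs were searched on both strands of the 250 bases before the start of each gene. CAGCTG, an E-box of the kind bound by myogenic factors, occurred 1 time in Dok5, with its first base at position -184 relative to the start, and not in Ros1. It was found in 12% of the 33469 promoters of the RefSeq table. CACGTG (5.59% of promoters), TGANTCA (6.34%), the MEF2 motif (2.96%) and the CArG box (1.5%) were not found in either window, which says only that these letters are not in these bases. The windows differed in base composition. The 250 bases before the start held 34.8% G and C in Ros1 and 65.2% in Dok5, against a median of 51.2% over all promoters and a range from the 5th to the 95th percentile of 34.0% to 72.8%.

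Ros1 was highest in the soleus of uncast HRT rats and lowest in the plantaris of immobilized LRT rats. In soleus HRT CTRL the 6 libraries were between 38.3 and 74.4 CPM with a median of 50.3 CPM, and in soleus HRT HI they were between 13.0 and 25.1 CPM with a median of 17.6 CPM. In soleus LRT CTRL they were between 17.2 and 41.9 CPM with a median of 29.7 CPM, and in soleus LRT HI between 5.6 and 20.7 CPM with a median of 10.6 CPM. The HI and CTRL libraries of HRT soleus did not overlap, whereas in LRT soleus 4 of 6 HI libraries were below every CTRL library. The highest HI library there, replicate 6, reached 20.7 CPM, above the lowest CTRL library at 17.2 CPM.

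Ros1 was lower in plantaris than in soleus of the same line and treatment. In plantaris HRT CTRL the libraries were between 13.3 and 19.8 CPM with a median of 14.4 CPM, and in plantaris HRT HI between 2.24 and 8.87 CPM with a median of 4.69 CPM. In plantaris LRT CTRL they were between 5.47 and 14.1 CPM with a median of 9.38 CPM, and in plantaris LRT HI between 1.23 and 5.43 CPM with a median of 2.25 CPM. HI and CTRL did not overlap in either line of plantaris, and in LRT the gap was small, from 5.43 to 5.47 CPM.

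Uncast, Dok5 had similar levels in both muscles and in both lines. In plantaris HRT CTRL the libraries were between 8.97 and 13.1 CPM with a median of 10.2 CPM, and in plantaris LRT CTRL between 7.29 and 11.0 CPM with a median of 8.37 CPM. In soleus HRT CTRL they were between 6.69 and 10.2 CPM with a median of 8.19 CPM, and in soleus LRT CTRL between 7.39 and 11.7 CPM with a median of 8.26 CPM. The 4 CTRL groups overlapped one another.

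After HI, Dok5 was between 0.864 and 4.36 CPM (median 2.71 CPM) in plantaris HRT and between 1.12 and 5.64 CPM (median 2.34 CPM) in plantaris LRT. It was between 0.657 and 4.33 CPM (median 1.81 CPM) in soleus HRT and between 0.557 and 5.14 CPM (median 1.78 CPM) in soleus LRT. Every HI library was below every CTRL library of the same muscle and line, in all 4 comparisons. Such a separation in all 4 comparisons was shared by 16 of the 16960 tested genes (0.0943%). Taken singly, it was shared by 5.74% of genes in plantaris LRT, 5.4% in plantaris HRT, 2.09% in soleus LRT and 2.31% in soleus HRT. The lower level was part of what chose the gene, so the count is a description.

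**Figure D1:**
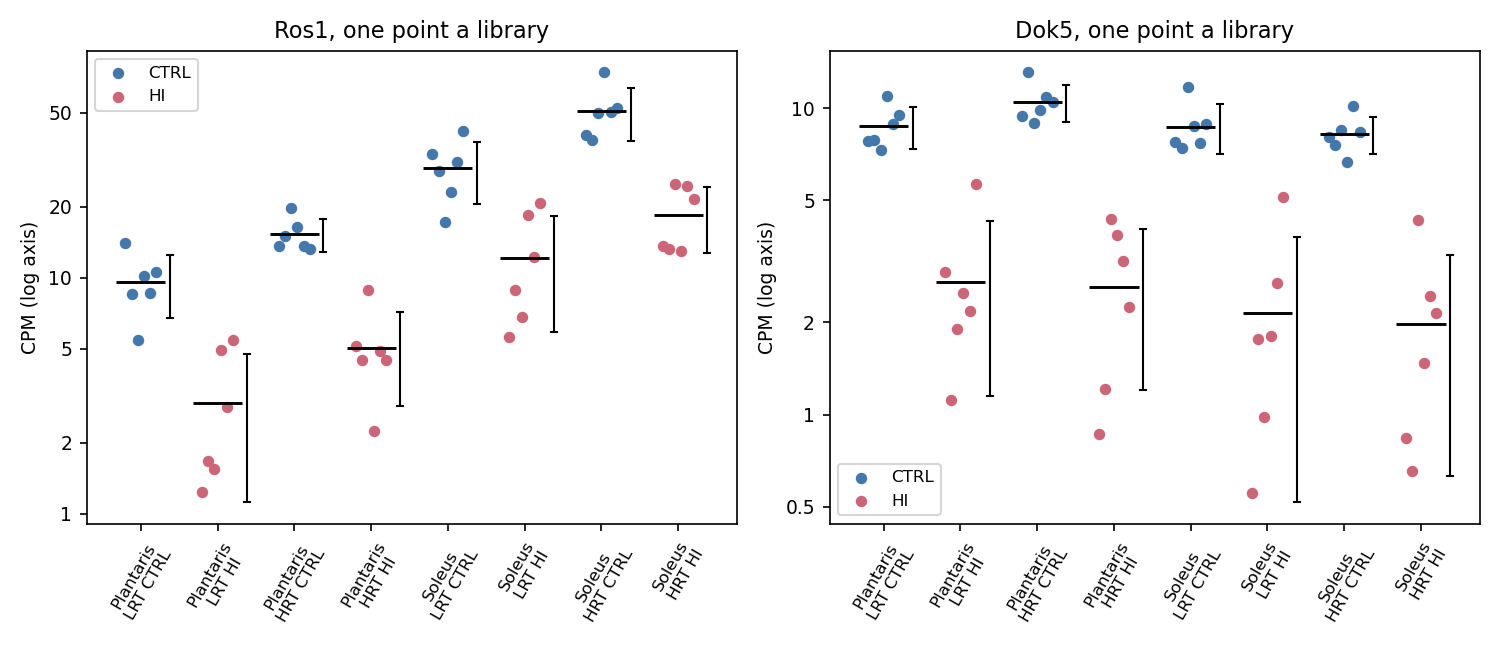
Level of Ros1 (left) and Dok5 (right) in each library, in CPM on a log axis, by muscle, line and treatment. Each point is a library, the horizontal bar is the mean of 6 libraries and the bracket is the SD; Dok5 in HI lies under its CTRL groups everywhere, and Ros1 of LRT soleus is the exception to a full separation.

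In order of the group means, Ros1 fell from soleus HRT CTRL (51.0 ± 12.9 CPM, mean ± SD, n = 6) to soleus LRT CTRL (29.2 ± 8.57 CPM), soleus HRT HI (18.5 ± 5.77 CPM) and plantaris HRT CTRL (15.3 ± 2.48 CPM). Then came soleus LRT HI (12.1 ± 6.23 CPM), plantaris LRT CTRL (9.56 ± 2.84 CPM), plantaris HRT HI (5.02 ± 2.15 CPM) and plantaris LRT HI (2.94 ± 1.83 CPM). The ranges of all neighbours in this order overlapped. The immobilized soleus of HRT rats was thus at a level near that of uncast HRT plantaris.

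For Dok5 the order separated by treatment. The means of the CTRL groups were 10.5 ± 1.46 CPM in plantaris HRT, 8.73 ± 1.39 CPM in plantaris LRT, 8.7 ± 1.59 CPM in soleus LRT and 8.23 ± 1.17 CPM in soleus HRT. The means of the HI groups were 2.71 ± 1.56 CPM in plantaris LRT, 2.62 ± 1.42 CPM in plantaris HRT, 2.15 ± 1.64 CPM in soleus LRT and 1.98 ± 1.35 CPM in soleus HRT. The only neighbours in this order whose ranges did not overlap were soleus HRT CTRL and plantaris LRT HI.

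On the log2 scale, HI libraries also varied more among themselves than CTRL libraries of the same muscle and line. For Dok5 the SD of log2 CPM was between 0.19 and 0.24 in the 4 CTRL groups and between 0.74 and 1.07 in the 4 HI groups. In soleus LRT HI the highest library was 9.24 times the lowest, against 1.59 times in soleus LRT CTRL. For Ros1 the SD of log2 CPM was between 0.22 and 0.45 in CTRL and between 0.45 and 0.88 in HI. On the linear scale this was not so for Ros1, whose SD in CPM was higher in CTRL than in HI in all 4 pairs (12.9 against 5.77 CPM in soleus HRT). For Dok5 the SDs in CPM were close, at 1.17 to 1.59 CPM in CTRL and 1.35 to 1.64 CPM in HI, and in plantaris HRT that of CTRL was the higher (1.46 against 1.42 CPM). For Ros1 in soleus HRT, the highest library was 1.93 times the lowest in HI and 1.94 times in CTRL. The lowest Dok5 library rested on 18 estimated counts and the lowest Ros1 library on 45.

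Log2 fold changes were fitted with edgeR in a model of all 48 libraries with RIN as a covariate. For Ros1 the log2 fold change of HI relative to CTRL was -1.76 (SE 0.33) in plantaris LRT, -1.65 (SE 0.32) in plantaris HRT, -1.25 (SE 0.3) in soleus LRT and -1.42 (SE 0.3) in soleus HRT. For Dok5 it was -1.79 (SE 0.36), -2.12 (SE 0.37), -1.98 (SE 0.36) and -1.96 (SE 0.37) in the same order. In linear terms, mean CPM in HI was between 30.8% and 41.5% of the CTRL mean for Ros1 and between 24.1% and 31.1% for Dok5. Genes with a lower log2 fold change than Ros1 made up between 0.389% and 0.808% of all genes, and those with a lower value than Dok5 between 0.136% and 0.513%. Differentially expressed genes (DEGs), called at an adjusted p below 0.05 and an absolute log2 fold change above 1, that were lower made up 2.44% of genes in plantaris LRT, 0.991% in plantaris HRT, 0.991% in soleus LRT and 1.47% in soleus HRT. Higher DEGs made up 2.75%, 0.908%, 1.42% and 1.46% in the same order. Genes that were lower DEGs in all 4 comparisons made up 0.118%. No such call is given for Ros1 and Dok5, whose lower level chose them. In bulk muscle, fewer cells that express a gene and less RNA per cell cannot be told apart.

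The muscle difference was not used in choosing the genes, and it was present for Ros1. In CTRL rats Ros1 was lower in plantaris than in soleus by a log2 fold change of -1.68 (SE 0.32, edgeR quasi-likelihood test, adjusted p = 4.1e-05) in LRT and -1.78 (SE 0.31, adjusted p = 8.8e-06) in HRT. These are 3.2-fold and 3.44-fold differences. All 6 plantaris libraries were below all 6 soleus libraries in LRT (highest 14.1 against lowest 17.2 CPM) and in HRT (19.8 against 38.3 CPM). Of all tested genes, 32.6% passed this test in LRT and 38.8% in HRT, and 10.7% and 11.0% were below in plantaris without overlap. Muscle differences at this threshold were therefore common, and genes with a lower value than Ros1 made up 2.45% and 2.44% of all genes. In HI rats the same separation held, with plantaris at most 5.43 CPM and soleus at least 5.6 CPM in LRT, and 8.87 against 13.0 CPM in HRT. A separation of this kind in HI was seen in 5.52% and 7.81% of genes. The share of fast and slow fibres moves with this contrast. The fast fibre sum is given above. The slow fibre markers (4 genes) were Ckmt2, Fabp3, Casq2 and Pln. They summed to between 1420 and 2140 CPM in plantaris CTRL and between 1830 and 4810 CPM in soleus CTRL. The largest part was Ckmt2, with a mean of 1470 CPM in plantaris HRT CTRL and 1650 CPM in soleus HRT CTRL. In these groups Fabp3 (356 against 1090 CPM) and Casq2 (53.9 against 476 CPM) were lower in plantaris, whereas Pln (19.6 against 16.7 CPM) was not. The part of the fibre markers in the Ros1 difference was not tested.

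Dok5 did not pass the test between muscles. Its plantaris minus soleus log2 fold change in CTRL was -0.14 (95% interval -0.82 to 0.55, adjusted p = 0.81) in LRT and 0.3 (95% interval -0.37 to 0.96, adjusted p = 0.53) in HRT, by edgeR with Benjamini-Hochberg adjustment. The Dok5 libraries of both muscles overlapped in each line. A muscle difference of the size seen for Ros1 lies outside both of these intervals.

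Between the lines, Ros1 was lower in LRT than in HRT in CTRL rats of both muscles, but neither difference passed after adjustment over all genes. In plantaris the log2 fold change was -0.68 (95% interval -1.28 to -0.08, edgeR adjusted p = 0.4) and in soleus -0.79 (95% interval -1.37 to -0.2, adjusted p = 0.18). The libraries of the lines overlapped in each muscle. Plantaris LRT CTRL replicate 1, at 14.1 CPM, was above the lowest HRT library at 13.3 CPM. Soleus LRT CTRL replicate 6, at 41.9 CPM, was above the lowest HRT library at 38.3 CPM. Of all genes, 0.525% passed the test between lines in plantaris and 1.45% in soleus. The mean of LRT was 62.5% of that of HRT in plantaris CTRL and 57.2% in soleus CTRL, and 58.6% and 65.5% in the HI groups. In CTRL, fast fibre marker sums differed between the lines in the other direction. They were 23200 to 30200 CPM in LRT and 19000 to 22500 CPM in HRT plantaris CTRL, with a median of 4010 against 2170 CPM in soleus CTRL. In HI plantaris the median sum was lower in LRT, as Ros1 was, at 13400 against 15500 CPM in HRT. In HI soleus it was 3010 CPM in LRT against 2440 CPM in HRT. The part of the fast fibre markers in the Ros1 line difference was not tested.

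For Dok5 the line difference in CTRL was -0.29 (95% interval -0.95 to 0.37, edgeR adjusted p = 0.82) in plantaris and 0.14 (95% interval -0.52 to 0.81, adjusted p = 0.89) in soleus. The LRT mean was 83.5% of the HRT mean in plantaris and 106% in soleus. The libraries of both lines overlapped. When each library was left out in turn, the log2 difference was between -0.39 and -0.16 in plantaris and between 0.01 and 0.21 in soleus.

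The study also compared the HI response of the lines, a contrast it named DELTA. It is computed here as the HI response in LRT minus that in HRT. Both terms of this difference are responses that chose the genes, so for Ros1 and Dok5 it is a description with no test. For Ros1 it was -0.11 (95% interval -0.97 to 0.76) in plantaris and 0.18 (95% interval -0.65 to 1) in soleus. For Dok5 it was 0.33 (95% interval -0.64 to 1.3) in plantaris and -0.03 (95% interval -1.02 to 0.96) in soleus. The Dok5 value in plantaris was 0.01 without plantaris LRT HI replicate 6. Over all genes, 0 passed the test of DELTA in plantaris and 5 in soleus (0.0295%). At an unadjusted p below 0.05 the plantaris count was 1060, and limma-voom called 1 gene and DESeq2 called 0 there. The soleus count was between 3 and 81 when a library was left out, the latter without soleus HRT HI replicate 6.

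The responses of the muscles were compared within each line, again with both terms among the responses that chose the genes and with no test for them. For Ros1 the plantaris response minus the soleus response was -0.51 (95% interval -1.39 to 0.36) in LRT and -0.23 (95% interval -1.09 to 0.63) in HRT. For Dok5 it was 0.2 (95% interval -0.79 to 1.19) in LRT and -0.16 (95% interval -1.18 to 0.86) in HRT. Over all genes, 2.18% (370) passed this test with edgeR in LRT and 0.0943% (16) in HRT. These counts moved with single libraries, to 38 without plantaris LRT HI replicate 1 and 897 without plantaris LRT HI replicate 6 in LRT, and to 1 without plantaris HRT CTRL replicate 3 and 27 without soleus HRT HI replicate 3 in HRT.

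**Figure D2:**
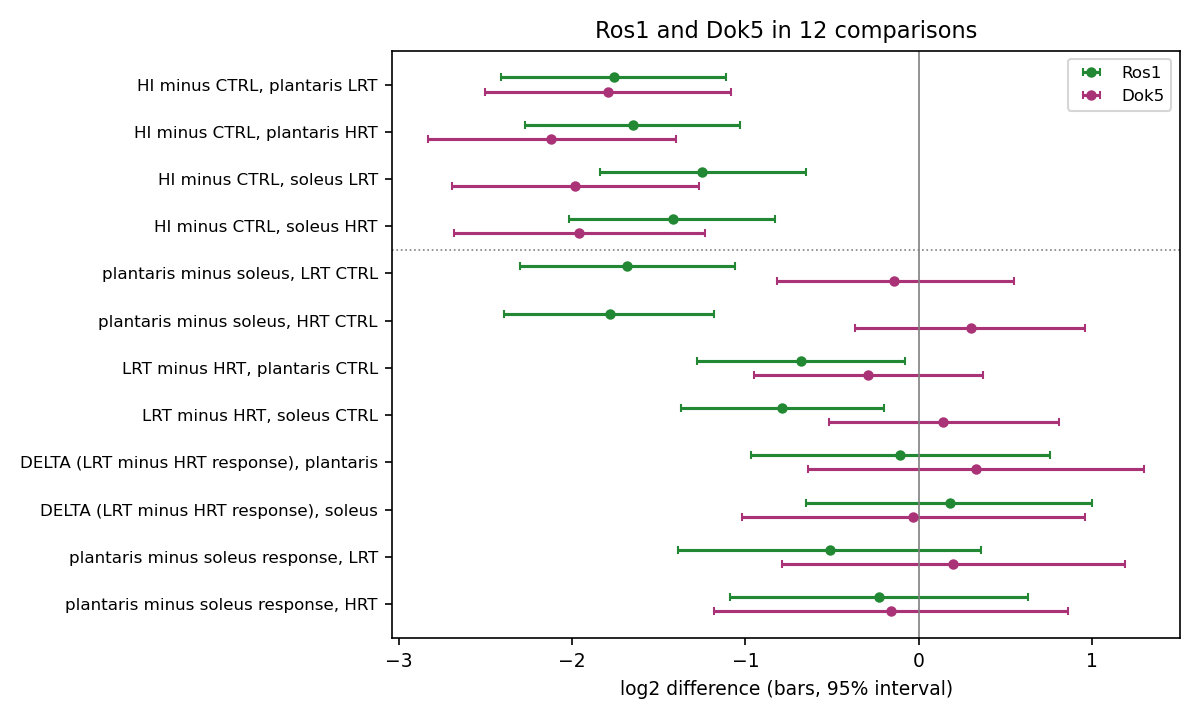
Log2 differences of Ros1 and Dok5 in 12 comparisons, with 95% intervals as bars; the 4 above the dotted line chose the genes. Below it, of the differences between muscles and lines in CTRL, the 2 muscle differences of Ros1, near -1.7, passed after adjustment; the differences of the HI responses (DELTA and muscle responses) are a description.

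Some HI libraries were high for both genes. In LRT HI replicate 6 held the highest level of Ros1 (5.43 CPM in plantaris, 20.7 CPM in soleus) and the highest level of Dok5 (5.64 CPM and 5.14 CPM). In HRT HI replicate 3 was the highest for Ros1 (8.87 CPM and 25.1 CPM) and for Dok5 (4.36 CPM and 4.33 CPM). Other libraries went opposite ways. Plantaris HRT HI replicate 4 was the lowest for Ros1 (2.24 CPM) and the second highest for Dok5 (3.85 CPM). In CTRL, soleus HRT replicate 4 was the highest for Ros1 (74.4 CPM) and the lowest for Dok5 (6.69 CPM), and soleus LRT replicate 3 was the lowest for Ros1 (17.2 CPM) and the highest for Dok5 (11.7 CPM). The labels give the same number to a plantaris and a soleus library, which may come from the same rat.

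The relation between Ros1 and Dok5 was tested within each group, with 6 libraries and exact permutation tests of log2 CPM. Pearson's r was 0.88 in soleus HRT HI (exact permutation p = 0.033, adjusted over 8 groups p = 0.13) and 0.87 in soleus LRT HI (p = 0.024, adjusted p = 0.13). Spearman's rho was 0.83 (exact permutation p = 0.058, adjusted p = 0.23) and 0.94 (p = 0.017, adjusted p = 0.14) in the same groups. Without the 2 libraries farthest from the Ros1 median, r was 0.74 and 0.63. In the other 6 groups r was between -0.66 in soleus LRT CTRL and 0.58 in plantaris LRT HI, and none of the 8 passed after adjustment. In CTRL groups, r was below 0 in 3 of 4. Without the 2 farthest libraries it turned above 0 in plantaris HRT CTRL (from -0.43 to 0.79) and in soleus HRT CTRL (from -0.33 to 0.44), and below 0 in plantaris LRT HI (from 0.58 to -0.14).

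Within each line and treatment the level in plantaris was also set beside that of the same-numbered soleus library. For Ros1 in LRT HI, r was 0.99 and rho was 1.0 over 6 pairs (exact permutation p = 0.0014 and p = 0.0028, adjusted over 8 relations p = 0.011 and p = 0.022), and r was 0.96 without the 2 pairs farthest from the median. The order of the 6 numbers was the same in both muscles. For replicates 1 to 6 plantaris held 1.23, 1.67, 1.55, 4.93, 2.83 and 5.43 CPM. For the same numbers soleus held 5.6, 8.9, 6.84, 18.4, 12.3 and 20.7 CPM. Over all tested genes, same-numbered plantaris and soleus libraries of LRT HI also deviated together from their group means. Their mean r was 0.323, against -0.064 for pairs of other numbers. How many genes have an r like that of Ros1 was not counted, so the relation is not read as particular to Ros1. For Ros1 in the other 3 line and treatment groups r was between 0.27 and 0.74, and for Dok5 it was between -0.18 and 0.84. Without the 2 farthest pairs, the direction turned for Ros1 in HRT CTRL (from 0.27 to -0.82) and HRT HI (from 0.64 to -0.12) and for Dok5 in LRT CTRL (from -0.18 to 0.81) and LRT HI (from 0.4 to -0.42). None of these 7 passed after adjustment (adjusted exact permutation p between 0.2 and 0.96). This set of relations and those with RIN were added after the data had been seen. For RIN against Ros1, values were highest in size in the plantaris of LRT HI rats (r = 0.89, exact permutation p = 0.033, adjusted over 16 p = 0.26, rho = 0.85 with p = 0.067) and, in the other direction, in soleus HRT CTRL (r = -0.86, exact permutation p = 0.011, adjusted p = 0.18, rho = -0.91 with p = 0.022). In plantaris LRT HI only replicates 4 (RIN 8.5) and 6 (RIN 8.6) were above the lowest RIN of 8.3. Without the 2 libraries farthest from the median RIN, r could therefore not be computed there, and it was -0.59 in soleus HRT CTRL. The part of RIN in the relation between the muscles was not tested.

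**Figure D3:**
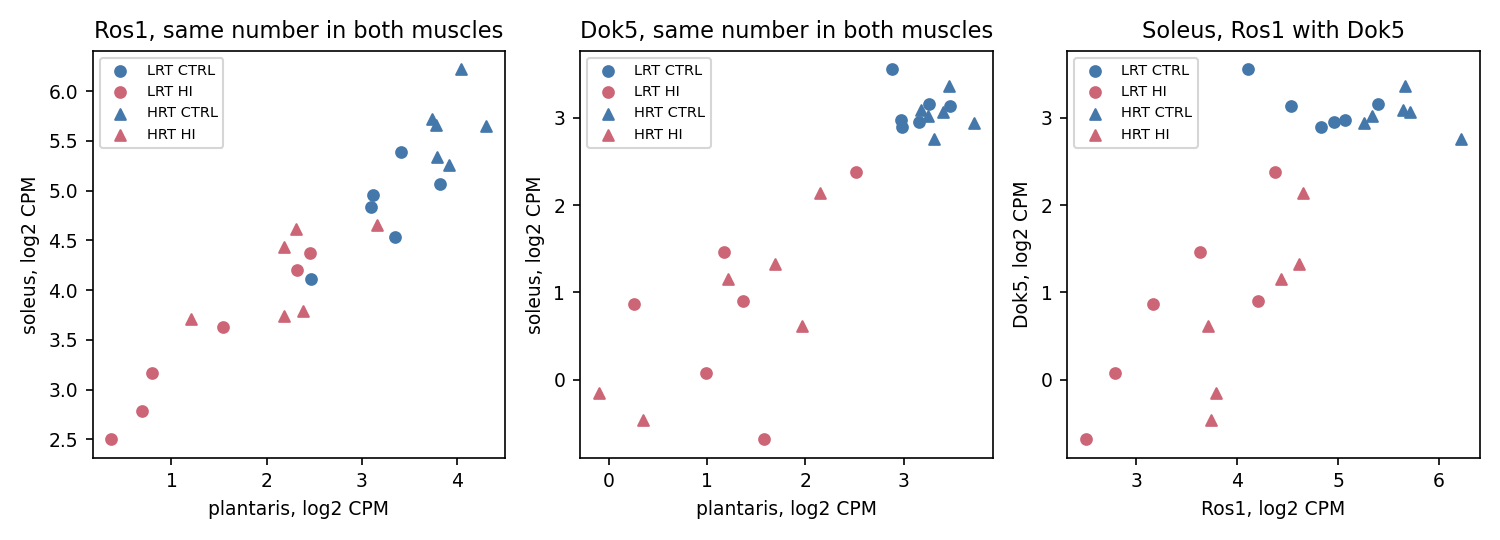
Log2 CPM of Ros1 (left) and Dok5 (middle) in plantaris against soleus of the same number, and of Dok5 against Ros1 in soleus (right), 6 points a group. The LRT HI points of Ros1 lie along a line (r = 0.99), and in soleus HI r was 0.87 in LRT and 0.88 in HRT, which did not pass after adjustment.

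The genes most like each member were looked for among those with a symbol, over the 48 libraries. Symbols were taken from the study's tables of DEGs, so the search covered genes already selected for change on these samples. Among all tested genes, the 5 named for Ros1 were at places 1, 3, 4, 6 and 10 in closeness. The 5 named for Dok5 were at places 1, 2, 6, 8 and 13. The 48 libraries share the groups and the normalization, so the correlations are a description. For Ros1 the closest were Dnah5 (r = 0.95), an axonemal dynein heavy chain, Asb18 (0.93), AABR07001555.1 (0.93), Fgf1 (0.92), an acidic fibroblast growth factor that binds all fibroblast growth factor receptors, and Mamdc2 (0.9). Fgf1 was 63.7 ± 7.66 CPM in soleus HRT CTRL and 15.4 ± 2.03 CPM in plantaris HRT CTRL, and in CTRL its plantaris minus soleus log2 fold change was -2.44 (SE 0.38) in LRT and -2.1 (SE 0.37) in HRT. A gene chosen for its likeness to Ros1 shares the muscle difference through that choice, so these values are given with no test.

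For Dok5 the closest were Vegfa (r = 0.88), the main growth factor of blood vessels, Col5a3 (0.88), a chain of type V collagen, Tomm40l (0.85), an import channel protein of the mitochondrial outer membrane, Slc41a3 (0.84), a magnesium transporter, and Tfrc (0.83), the transferrin receptor. Vegfa was 229 ± 24.4 CPM in plantaris LRT CTRL and 91.3 ± 42.4 CPM in plantaris LRT HI.

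Deviations from the group means take out the treatment, the muscle and the line. By that measure the closest to Ros1 were Acox2 (r = 0.79), a peroxisomal acyl-CoA oxidase, Ptpn3 (0.78), a protein tyrosine phosphatase, Efr3b (0.77), Fgf1 (0.77) and Snai3 (0.76). The closest to Dok5 were Gpx1 (0.79), a glutathione peroxidase, Xpo1 (0.74), the nuclear export receptor, Vgll2 (0.73), a cofactor of TEAD transcription factors in skeletal muscle, Dnajb4 (0.72), a heat shock protein, and Fgf1 (0.71). Fgf1 was thus in both of these lists of genes with a symbol. Among all tested genes, those named for Ros1 were at places 1, 2, 4, 5 and 7. Those named for Dok5 were at places 1, 6, 8, 11 and 13. Between Ros1 and Dok5 themselves r was 0.46, which placed Dok5 at 952 of 16959 genes in closeness to Ros1 and Ros1 at 685 in closeness to Dok5. Over the 48 libraries without taking out the group means it was 0.49.

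In the RefSeq annotation (GRCr8), Vgll2 is the nearest protein-coding gene on a side of Ros1, and Dcbld1 is on the other side. Vgll2 also had its higher level in soleus, at 33.0 ± 9.83 CPM in HRT CTRL and 14.6 ± 2.34 CPM in plantaris HRT CTRL. Its symbol came from the study's tables of DEGs after HI on these samples, and it was among the genes most like Dok5. Its HI values were thus partly fixed by selection and are given with no test. In soleus the log2 fold change of HI was -1.08 (SE 0.25) in LRT and -1.14 (SE 0.26) in HRT. In plantaris it was -0.55 (SE 0.25) in LRT and -0.57 (SE 0.25) in HRT. The difference between the muscles in this response did not pass its own test. The plantaris minus soleus value was 0.52 (SE 0.36, edgeR adjusted p = 0.46) in LRT and 0.57 (SE 0.36, adjusted p = 0.54) in HRT. Over the 48 libraries its r with Ros1 was 0.81, at place 197 of 16959 genes. By deviations from the group means its r was 0.51 with Ros1, at place 586, and 0.73 with Dok5, which is not its neighbour, at place 8. Vgll2 was singled out as a neighbour of Ros1 after its values had been seen. The annotation also places LOC134483925, a long non-coding RNA, and LOC100911055, a protein-coding gene, so that they overlap Ros1, and LOC134486495, a long non-coding RNA, so that it overlaps Dok5. The labels and the study's methods name different library kits, of which the latter is stranded, so reads of genes on opposite strands there may not have been separated.

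Of the 197 genes listed for receptor tyrosine kinase signaling, 35 (17.8%) had an identifier, because symbols were taken from tables of DEGs. The listed genes were therefore selected for change on these samples, are not independent evidence of a direction, and do not describe the pathway as a whole. Among the 1149 tested genes with a symbol, lower DEGs made up 29.2% in plantaris LRT, 11.5% in plantaris HRT, 11.1% in soleus LRT and 15.4% in soleus HRT, and higher DEGs 26.5%, 8.27%, 12.4% and 13.0%, against the shares of 0.908% to 2.75% over all genes given above. The counts below stand beside these shares, and nothing particular to a list is read from them. Where a gene passed in 1 muscle or line and not in the other, no difference between them is read from it. Ret, the receptor that Dok5 is known to bind, fell in all 4 comparisons, with log2 fold changes of -1.29 (SE 0.22, edgeR adjusted p = 5e-05) in plantaris LRT, -1.25 (SE 0.22, adjusted p = 0.00046) in plantaris HRT, -0.98 (SE 0.23, adjusted p = 0.0035) in soleus LRT and -1.23 (SE 0.23, adjusted p = 0.00035) in soleus HRT. In CTRL plantaris LRT, Ret was 6.8 ± 1.09 CPM, and in HI 2.71 ± 0.263 CPM. Of the other 3 receptors, Igf1r rose in plantaris LRT (1.05, SE 0.16, adjusted p = 1.1e-05) and plantaris HRT (0.73, SE 0.16, adjusted p = 0.0035), which is opposite to both members. Musk, the kinase of the neuromuscular junction, rose in plantaris LRT (1.11, SE 0.42, adjusted p = 0.041), and Epha7 fell there (-1, SE 0.36, adjusted p = 0.036). In soleus none of these 3 receptors passed. Musk was also among the 3 higher DEGs of the neuromuscular markers in plantaris LRT, a count that moved with single libraries, as given below.

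Among 9 ligands, 6 were lower DEGs in plantaris LRT and 1 was higher, and in soleus LRT 3 were lower DEGs. In plantaris HRT and in soleus HRT 2 were lower DEGs, and none was higher. The median log2 fold change of the ligands was -1.13 in plantaris LRT, -0.89 in plantaris HRT, -0.33 in soleus LRT and -0.8 in soleus HRT, against 0.01 to 0.02 over all genes. Fgf6, a fibroblast growth factor of muscle, fell in all 4 comparisons, by -1.88 (SE 0.41), -1.55 (SE 0.38), -1.25 (SE 0.34) and -1.78 (SE 0.37) in the order plantaris LRT, plantaris HRT, soleus LRT and soleus HRT (edgeR adjusted p between 0.00057 and 0.012). Its level was low, with group means between 0.196 CPM in plantaris LRT HI and 1.46 CPM in soleus LRT CTRL. Vegfa fell in 3 of 4, with -1.39, -1.16 and -1.11 (adjusted p between 0.00028 and 0.0068), and was -0.76 (adjusted p = 0.054) in soleus HRT. Fgf1 passed the test in the LRT line, with -1.08 (adjusted p = 0.026) in plantaris and -1.28 (adjusted p = 0.013) in soleus. In HRT it was -0.62 and -0.82 without passing (adjusted p = 0.28 and 0.1), and the difference between the lines did not pass its own test (DELTA adjusted p = 0.9 and 0.81). Hbegf rose in plantaris LRT by 2.02 (SE 0.59, adjusted p = 0.0079).

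The 10 adaptors held 3 higher and 2 lower DEGs in plantaris LRT, 0 and 2 in plantaris HRT, 0 and 2 in soleus LRT and 1 and 2 in soleus HRT, with median log2 fold changes of 0.18, -0.17, -0.06 and 0.08. Irs1, the insulin receptor substrate, fell in all 4 comparisons, from -0.86 (SE 0.27, edgeR adjusted p = 0.014) in plantaris LRT to -1.67 (SE 0.28, adjusted p = 8.6e-05) in soleus HRT. Irs2 fell in soleus by -1.64 and -1.88 (adjusted p = 0.0049 and 0.0014) and was 0.23 and -0.64 in plantaris without passing. Pik3r1, the regulatory subunit of phosphoinositide 3-kinase, rose in soleus HRT by 1.25 (SE 0.21, adjusted p = 0.00012) and also in plantaris HRT (0.71, SE 0.21, adjusted p = 0.023) and soleus LRT (0.68, SE 0.21, adjusted p = 0.024). Dok3, another member of the Dok family, rose in plantaris LRT by 0.91 (SE 0.32, adjusted p = 0.028) and had values of 0.84 to 0.86 in the other 3 comparisons without passing (adjusted p between 0.069 and 0.08). It was the only other gene of the Dok family with an identifier, and its values lay in the direction opposite to Dok5. The level of Dok3 was low, with group means between 0.347 CPM in soleus LRT CTRL and 0.842 CPM in plantaris LRT HI.

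Of 12 negative regulators, 4, 4, 3 and 2 were lower DEGs in plantaris LRT, plantaris HRT, soleus LRT and soleus HRT, and 1 was a higher DEG in each. Their median log2 fold changes were -0.91, -0.77, -0.51 and -0.37 in the same order. Dusp8, a phosphatase of mitogen-activated protein kinases, fell in all 4 comparisons, from -0.93 (SE 0.29, edgeR adjusted p = 0.012) to -1.59 (SE 0.29, adjusted p = 0.00031). Pik3ip1, an inhibitor of phosphoinositide 3-kinase, rose in soleus by 1.9 (SE 0.3, adjusted p = 9.1e-05) and 2.17 (SE 0.3, adjusted p = 5.2e-06). Errfi1, a feedback inhibitor of the epidermal growth factor receptor, rose in plantaris by 1.45 (adjusted p = 0.00071) and 1.15 (adjusted p = 0.017).

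**Figure D4:**
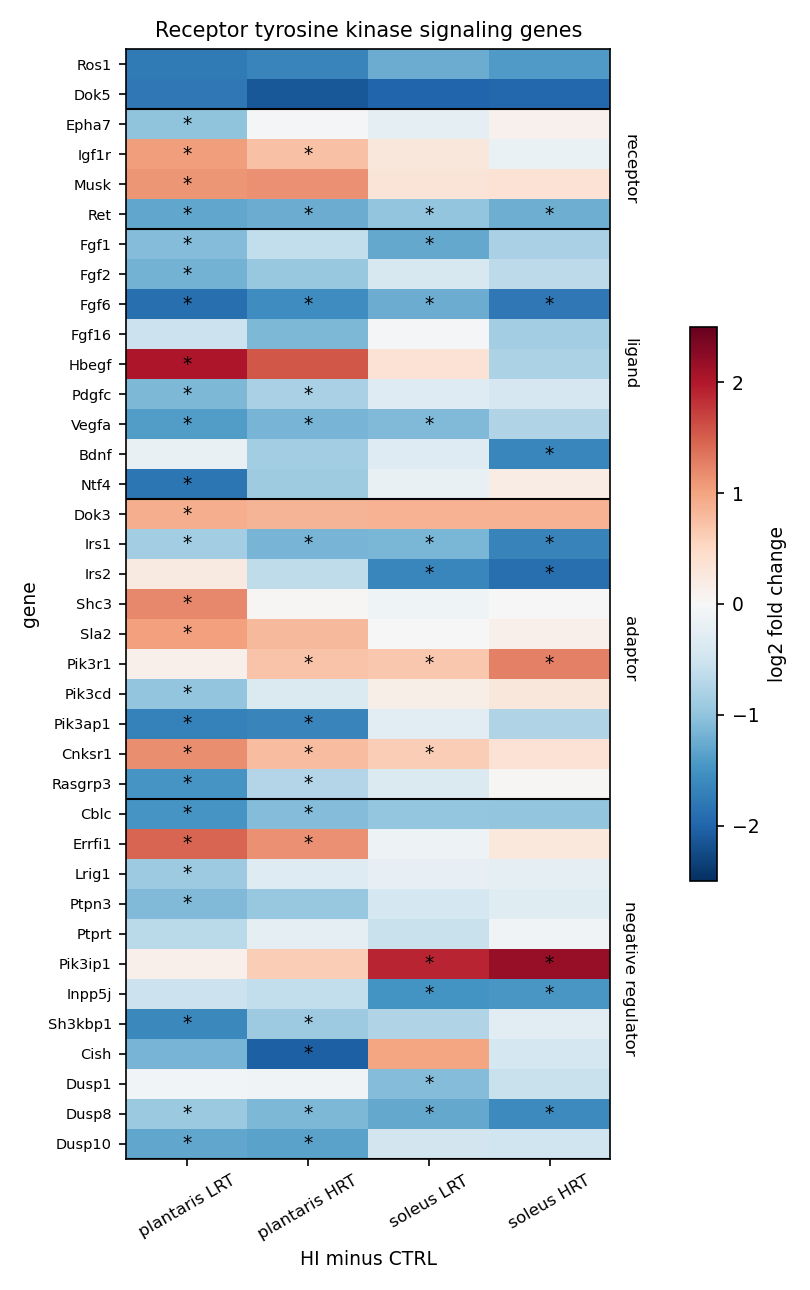
Log2 fold change of HI relative to CTRL for Ros1, Dok5 and the 35 receptor tyrosine kinase signaling genes with an identifier, by muscle and line; stars mark an adjusted p below 0.05 and are not drawn for Ros1 and Dok5. Ret, Fgf6, Irs1 and Dusp8 are starred in all 4 columns, all in the lower direction.

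Marker lists of other cell types and of fibre types were measured in the same comparisons. Their genes too have identifiers only through the tables of DEGs, so they were already picked for change on these samples. The fibroblast and tendon markers (6 genes) had a median log2 fold change of -1.02 in plantaris LRT, -0.98 in plantaris HRT, -0.52 in soleus LRT and -0.7 in soleus HRT, and 3, 1, 0 and 2 of them were lower DEGs, with no higher DEG. When a library was left out, the lower DEGs were between 1 and 5 in plantaris LRT (1 without HI replicate 3, 5 without HI replicate 6) between 0 and 6 in plantaris HRT (6 without HI replicate 6) and between 0 and 2 in soleus HRT (0 without CTRL replicate 1). Their sum was between 412 and 1070 CPM in plantaris LRT CTRL and between 168 and 626 CPM in HI. The fast fibre markers had medians of -1.25, -0.59, -0.16 and 0.33 in the same order, with 4, 1, 0 and 0 lower DEGs and 1 higher DEG, in soleus LRT. The slow fibre markers had medians of -1.3, -1.01, -0.77 and -0.52, with 3, 1, 0 and 0 lower DEGs and 1 higher DEG, Pln in soleus HRT. Without plantaris HRT HI replicate 5 the slow fibre lower DEGs were 3 in plantaris HRT, and without soleus LRT HI replicate 6 they were 2 in soleus LRT. The endothelial markers (4 genes) had medians of -0.27, -0.25, -1.08 and -0.76, with 0, 0, 2 and 1 lower DEGs and 1 higher DEG, in soleus HRT. With a library left out, their plantaris medians were between -0.38 and -0.12 in LRT and between -0.52 and -0.07 in HRT. The smooth muscle markers (3 genes) had medians of -0.52, -0.66, -0.91 and -0.15, with 1, 0, 1 and 1 lower DEGs. With a library left out, their soleus medians were between -1.09 and -0.6 in LRT and between -0.43 and 0.02 in HRT. Myeloid markers (4 genes) had medians of 0.8, 0.91, 0.28 and 1.19, with 1, 1, 0 and 3 higher DEGs, and the erythroid markers (5 genes) of -0.59, 1.43, 0.5 and 2.86, where all 5 were higher DEGs in soleus HRT. The erythroid sum in soleus HRT HI was between 223 and 1550 CPM in 5 libraries and 10500 CPM in replicate 5. Without that library the median was 1.63 with 3 higher DEGs, while the HI log2 fold change there was -1.54 for Ros1 and -2.06 for Dok5. Without plantaris HRT HI replicate 5, the erythroid median in plantaris HRT was 0.29. The neuromuscular junction and nerve markers (7 genes) had medians of -1.0, -0.81, -0.15 and 0.21, with 3, 2, 1 and 2 lower and 3, 1, 1 and 0 higher DEGs. The neuromuscular higher DEGs in plantaris LRT were 1 instead of 3 without any of 6 libraries taken singly (CTRL replicates 1, 2, 4 and 6 and HI replicates 1 and 2). Other counts of these lists moved by 1 gene at most when a library was left out. Medians moved as well. In soleus LRT they were then between -0.33 and -0.02 (neuromuscular) and between -0.28 and -0.05 (fast fibre). There they were also between 0.23 and 0.57 (myeloid) and between 0.3 and 0.69 (erythroid). In soleus HRT they were between 0.13 and 0.39 (neuromuscular) and between 0.22 and 0.59 (fast fibre). The erythroid median in plantaris LRT was between -0.75 and -0.24. No group mean of any marker was at 0. The part of these cell types in the lower Ros1 and Dok5 levels was not tested.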

How the data were processed

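RNA from plantaris and soleus was sequenced, and groups were taken from the labels. The authors quantified reads with Salmon 0.9.1 against Ensembl transcripts of Rnor_6.0 and summed them per gene with tximport, and deposited estimated counts, which were rounded here. The labels name a TruSeq RNA kit and the study's methods a stranded, ribosome-depleted total RNA kit, so the strand setting is not settled. Symbols were taken from the identifier columns of the study's DEG tables (1156 of 31998 identifiers, 3.61%). The authors' fold changes and p-values in those tables were not used.

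Genes were kept with filterByExpr, libraries were scaled by TMM, and a quasi-likelihood model with 8 groups and RIN was fitted to all 48 libraries with edgeR 4.0.16 in R 4.3.3. The p-values were adjusted by Benjamini-Hochberg over 16960 genes and called below 0.05. Intervals at 95% are normal. CPM uses TMM-scaled totals, and log2 CPM a prior count of 2. Scripts were tested on simulated data. Alternatives were DESeq2 1.42.0, limma-voom (limma 3.58.1), DESeq2 size factors, no RIN, other filters, a replicate block, each muscle alone and each library left out, the last also for the marker lists, which was added after seeing the data. Correlations used exact 2-sided permutation tests over 720 pairings. Libraries of a group are separate rats, and the relative counting error is larger at low counts.

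Named genes are both members, for each the 5 genes with a symbol that are most like it by either measure, and the listed receptor tyrosine kinase signaling genes with an identifier. The members and lists were chosen with earlier results of these data known. Positions on Rnor_6.0 and protein sequences were not used here. The plantaris and soleus libraries of the same number deviated together from their group means (for HI a mean r of 0.323 in LRT and 0.276 in HRT, with all 6 pairs above 0.1 in each, and for CTRL 0.21 in LRT, with all 6 pairs, and 0.096 in HRT, with 4 of 6). HI and CTRL libraries of the same number did not (mean r between -0.045 and 0.003).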

Additional observations from a re-analysis of the deposited data

How the results depend on the processing

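The differences of Ros1 and Dok5 between muscles and between lines in CTRL kept their direction and their side of the threshold in 154 of 156 recomputations, and the other 2 were changes of sign of Dok5 between muscles in LRT, which had no call in any fit. The HI values, DELTA and the muscle responses carry no test here and are given by their values. No result of Ros1 between muscles lost its call. It stayed between -1.81 and -1.52 in LRT (adjusted p at most 0.00028) and between -1.88 and -1.63 in HRT (adjusted p at most 4.9e-05). The HI log2 fold changes were between -2.0 and -1.06 for Ros1 and between -2.41 and -1.63 for Dok5. For Dok5 the difference of the muscle responses in HRT was 0.03 with limma-voom, 0.06 without RIN and 0.08 with a replicate block in which the same number is taken as 1 rat. Without RIN, Dok5 between muscles in LRT CTRL was 0.0 and its DELTA in soleus 0.04. When each library was left out in turn, DELTA ranged from -0.36 to 0.12 (Ros1, plantaris), -0.01 to 0.33 (Ros1, soleus), 0.01 to 0.5 (Dok5, plantaris) and -0.44 to 0.34 (Dok5, soleus). The Dok5 muscle response difference ranged from -0.36 to 0.23 in HRT and -0.09 to 0.65 in LRT. That of Ros1 ranged from -0.45 to -0.09 in HRT and -0.77 to -0.3 in LRT, and was -0.12 in HRT with the replicate block. The Dok5 muscle difference ranged from -0.22 to 0.01 in LRT CTRL and from 0.16 to 0.39 in HRT CTRL. Of the correlations of Ros1 with Dok5, that in plantaris HRT CTRL was 0.79, that in plantaris LRT HI -0.14 and that in soleus HRT CTRL 0.44 without the 2 farthest libraries, and that in plantaris HRT HI was 0.03 by rank. The cause was not tested for any of these. With the replicate block, Ros1 between muscles was -1.55 in LRT and -1.69 in HRT, and no call of either gene changed. HI and CTRL libraries share a number only.

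Counts over all genes moved more. With DESeq2 the line counts were 160 and 434 (89 and 246 with edgeR), the muscle response counts 738 and 110 (370 and 16) and the soleus DELTA count 31 (5). Without RIN, 9 and 64 genes were called for soleus DELTA and the HRT muscle response. With every gene that had a count, the muscle response counts were 165 and 1. With at least 10 counts in every library, fewer genes were tested and the DEG counts were 569, 186, 222 and 272 (879, 322, 409 and 497), the plantaris line count 56 and the soleus DELTA count 11. With the replicate block the muscle response counts were 1279 and 129. With each muscle alone, 293 DEGs were called in soleus HRT, 99 genes between lines in soleus and 0 for soleus DELTA. When each library was left out in turn, the counts were between 0 and 3 for plantaris DELTA, 3 and 81 for soleus DELTA, 38 and 897 for the LRT and 1 and 27 for the HRT muscle response, 32 and 99 between lines in plantaris and 139 and 342 in soleus. DEG counts were then between 609 and 1176, 189 and 472, 249 and 600, and 340 and 657. In depth, the lowest Dok5 library held 18 estimated counts.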
